A study of Mus musculus with 9 samples.

Results

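The 9 genes described here, Tcf7l2, Prkcd, Lef1, Ntng1, Slc17a6, Rgs16, Synpo2, Plekhg1 and Gbx2, are a named list of genes that mark neurons of the thalamus, out of 54446 gene identifiers counted in each library. They were found by symbol, and each of the 9 had 1 identifier in the count tables. Polyadenylated RNA was sequenced from the brain of adult male mice aged 3 to 4 months in 3 groups of 3 libraries: wild type (labelled B6N), Tfap2a+/- and Tfap2b+/-, which carry a heterozygous knockout of the gene for AP-2 alpha or AP-2 beta, related DNA-binding transcription factors. No treatment is named in the labels. The dissected brain part, the construction of the alleles and whether libraries of a genotype stem from separate animals are not given in the sources used here. The p-values then measure only how far these libraries spread, which may be technical.

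The thalamus is the part of the forebrain that relays sensory, motor and limbic signals to the cortex. Its relay neurons release glutamate and load it into vesicles with the transporter encoded by Slc17a6, whereas cortical neurons mostly use the related Slc17a7. Tcf7l2 and Lef1 belong to the TCF/LEF family of transcription factors, which bring beta-catenin to DNA in Wnt signalling, and Gbx2 encodes a homeodomain factor. In the mouse, Tcf7l2 and Gbx2 are required for thalamic neurons to mature and to extend axons to the cortex, and Tcf7l2 is also made in the habenula, in parts of the midbrain and in maturing oligodendrocytes.

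The counts in genes ran from 21946800 to 29214975 per library, so that 3 counts, taken as the limit that a count of 0 allows, corresponded to 0.101 to 0.141 CPM, the unit used for levels below, in which a count is set against the TMM-scaled size of its library. Tfap2a was near that limit: libraries 1 to 3 of wild type had 0.610, 0.263 and 0.734 CPM and those of Tfap2a+/- 0.445, 0.223 and 0.461 CPM, so it hardly checks the labels. Tfap2b had 2.25, 0.715 and 14.8 CPM in wild type, 1.88, 2.54 and 3.96 CPM for Tfap2a+/- and 32.9, 8.90 and 5.81 CPM for the libraries labelled Tfap2b+/-. Its mean was higher in the last group than in wild type, against that label (log2 fold 1.42 ± 0.98 SE, edgeR quasi-likelihood test, Benjamini-Hochberg adjusted p = 0.598). Tfap2b also ran from 0.715 to 14.8 CPM within wild type and is in the list of midbrain genes followed below, so its level cannot decide whether the label holds. The group is therefore called the libraries labelled Tfap2b+/-, and every direction given for it rests on the label. Earlier results of these data had set apart, in choroid plexus or hindbrain markers, library 2 of wild type, library 1 of Tfap2a+/- and library 1 labelled Tfap2b+/-.

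The 9 genes differed widely between libraries of the same genotype. In the group labelled Tfap2b+/-, library 2 was the highest or the second highest of all libraries for every gene, libraries 1 and 2 were the top pair for 4 of the 9 (Tcf7l2, Lef1, Ntng1 and Slc17a6), and library 3 held low levels. All 9 genes were counted in every library and passed the filter on low counts. Library 2 labelled Tfap2b+/- had the highest level of 6 of the 9, library 1 labelled Tfap2b+/- that of 2 (Tcf7l2 and Slc17a6) and wild-type library 1 that of Gbx2. Library 3 labelled Tfap2b+/- lay below every wild-type library for 8 of the 9, narrowly for Lef1 and with 1 count in each of the libraries that decide it for Gbx2, and for 6 of the 9 it lay within the range of the Tfap2a+/- libraries. The means of Tfap2a+/- were below those of wild type for all 9. In bulk tissue, fewer cells of a type and less RNA per cell cannot be told apart.

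**Figure D1:**
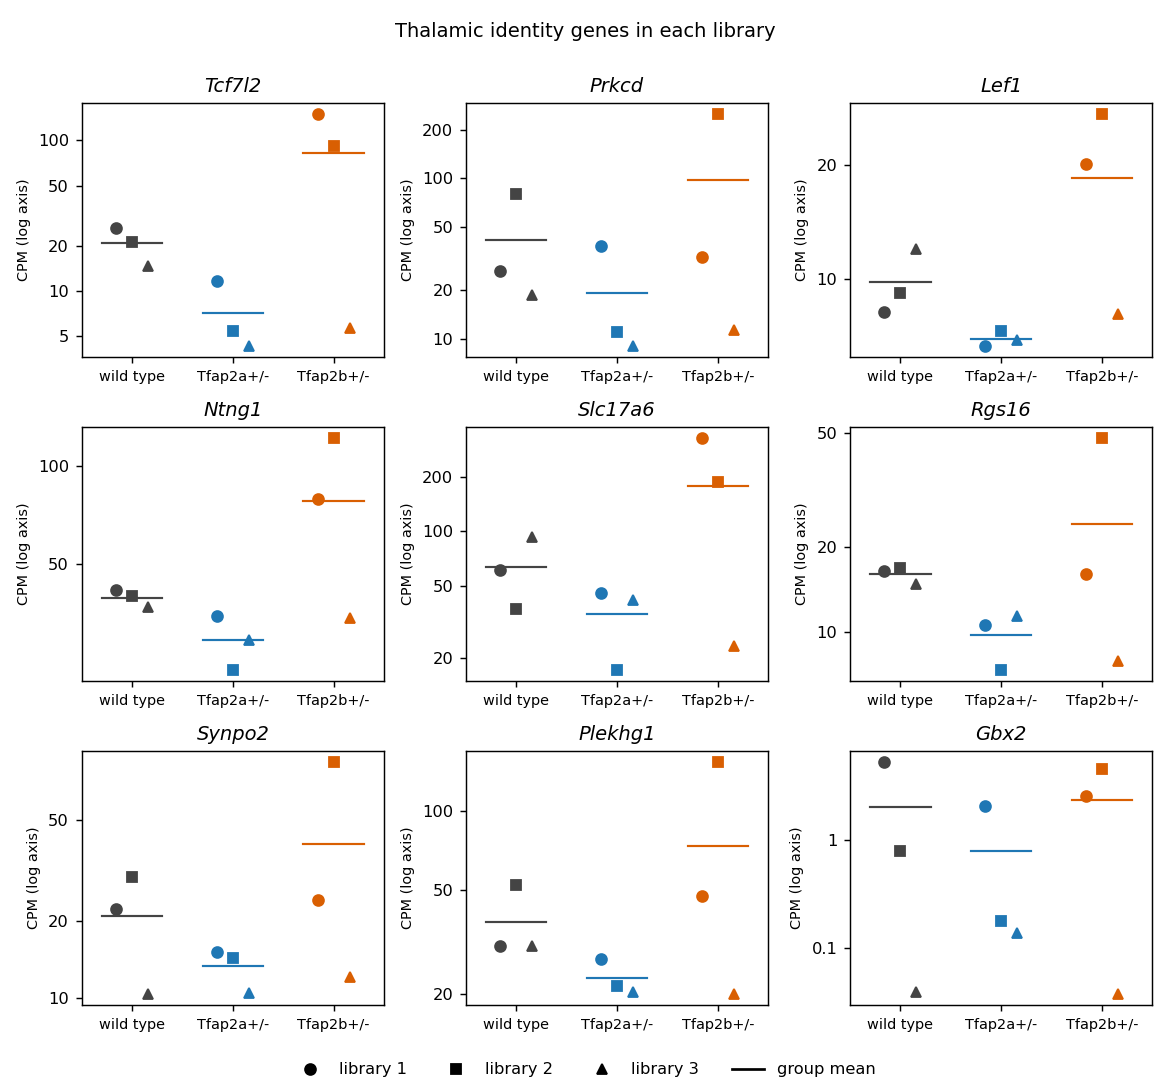
Level of each of the 9 genes (CPM, TMM-scaled, log axis) in the 3 libraries of wild type, Tfap2a+/- and the group labelled Tfap2b+/-; symbols give the library number and lines the group mean. Library 2 labelled Tfap2b+/- stands high for every gene and library 1 for some, whereas library 3 of that label lies near the Tfap2a+/- libraries.

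Tcf7l2 (ENSMUSG00000024985.18, chromosome 19, 55741820 to 55933654, GRCm38) had 26.2, 21.2 and 14.6 CPM in wild-type libraries 1, 2 and 3, then 11.7, 5.39 and 4.33 CPM for Tfap2a+/- and 148, 91.8 and 5.69 CPM for the libraries labelled Tfap2b+/-. Every Tfap2a+/- library lay below every wild-type library. Libraries 1 and 2 labelled Tfap2b+/- lay above all others, and library 3 of that label lay below all of wild type, next to Tfap2a+/- libraries 2 and 3. Its group means were 20.7 ± 5.80, 7.13 ± 3.97 and 82.0 ± 71.8 CPM (SD, n = 3 each). The log2 fold was -1.52 ± 0.90 (SE) in Tfap2a+/- against wild type, with a 95% interval from -3.55 to 0.52 and an adjusted p of 0.999 in edgeR. In an edgeR fit of these 2 genotypes alone the SE of that fold was 0.39 and the adjusted p 0.897. Against wild type the libraries labelled Tfap2b+/- had a log2 fold of 1.99 ± 0.87 (adjusted p = 0.471), and against Tfap2a+/- one of 3.51 ± 0.94 (adjusted p = 0.334, edgeR for both). The fold against wild type was 1.25 without library 1 of that label and 2.54 without library 3. Between its lowest and its highest library Tcf7l2 differed 34.3-fold, the widest range of the 8 genes other than Gbx2.

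Lef1 (ENSMUSG00000027985.14, chromosome 3, 131110471 to 131224356), the other TCF/LEF gene of the list, had 8.17, 9.18 and 11.97 CPM in wild type, 6.64, 7.26 and 6.86 CPM for Tfap2a+/- and 20.1, 27.3 and 8.07 CPM for the libraries labelled Tfap2b+/-. The Tfap2a+/- libraries lay close together and below all 6 others, and Lef1 was the only member whose libraries labelled Tfap2b+/- all lay above the Tfap2a+/- ones. That contrast gave a log2 fold of 1.42 ± 0.37 (SE; 95% interval 0.57 to 2.26), with an unadjusted p of 0.00426 and an adjusted p of 0.331 over the 17355 genes tested in edgeR. Of those genes, 9.2% had all 3 libraries labelled Tfap2b+/- above all 3 of Tfap2a+/-.

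Gbx2 (ENSMUSG00000034486.8, chromosome 1, 89927956 to 89931179) was the least abundant, with 112, 21 and 1 counts in wild type, 60, 4 and 3 in Tfap2a+/- and 73, 134 and 1 in the libraries labelled Tfap2b+/-. These correspond to 5.26, 0.790 and 0.0386 CPM, to 2.05, 0.178 and 0.138 CPM and to 2.58, 4.52 and 0.0377 CPM. Each genotype held a library with at most 3 counts and a library with at least 60, and the 3 groups overlapped throughout. Its fitted folds carry wide intervals, such as -1.28 ± 1.55 (SE) on the log2 scale in Tfap2a+/- against wild type, from -4.80 to 2.25. This value turned positive, at 0.97, once wild-type library 1 was dropped. Dropping Tfap2a+/- library 1 instead moved it to -3.61. D130058E05Rik, which overlaps Gbx2 on the opposite strand, had up to 65 counts in a library. The counts used were stranded.

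Slc17a6 (ENSMUSG00000030500.6, chromosome 7, 51622006 to 51671119), the vesicular glutamate transporter of relay neurons, had 61.3, 37.6 and 92.8 CPM in wild type, 46.1, 17.4 and 41.8 CPM for Tfap2a+/- and 324, 187 and 23.4 CPM for the libraries labelled Tfap2b+/-. Libraries 1 and 2 of that label were the highest of the 9, and library 3 was the lowest but 1. The groups overlapped in all 3 comparisons. The log2 folds were -0.86 ± 0.77 (SE) in Tfap2a+/- against wild type and 1.48 ± 0.77 in the libraries labelled Tfap2b+/- against wild type, with adjusted p-values of 0.999 and 0.517 in edgeR. The second fold was 0.73 without library 1 of that label, 2.00 without library 3 and 0.46 without the 3 libraries set apart by earlier results.

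Prkcd (ENSMUSG00000021948.17, chromosome 14, 30595354 to 30626210) encodes protein kinase C delta, a signalling kinase abundant in sensory relay nuclei. Its levels were 26.3, 79.5 and 18.6 CPM in wild type, 37.8, 11.0 and 9.03 CPM for Tfap2a+/- and 32.4, 251 and 11.4 CPM for the libraries labelled Tfap2b+/-. Library 2 labelled Tfap2b+/- stood 3.16-fold above the second highest library, which was wild-type library 2, and 7.76-fold above library 1 of its own label. The groups overlapped throughout, and the SD of the libraries labelled Tfap2b+/-, 133 CPM, exceeded their mean of 98.3 CPM. The log2 folds against wild type were -1.10 ± 1.08 (SE) for Tfap2a+/- and 1.24 ± 1.07 for the libraries labelled Tfap2b+/-, with edgeR adjusted p-values of 0.999 and 0.670. The first ran from -2.05 without Tfap2a+/- library 1 to -0.20 without wild-type library 2. The second ran from -0.92 without library 2 labelled Tfap2b+/- to 2.14 without wild-type library 2, and was 2.56 without the 3 libraries set apart.

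Rgs16 (ENSMUSG00000026475.7, chromosome 1, 153740349 to 153745468), which speeds the shut-off of G protein signals, had 16.4, 16.9 and 14.8 CPM in wild type, 10.6, 7.40 and 11.4 CPM for Tfap2a+/- and 16.02, 47.9 and 7.96 CPM for the libraries labelled Tfap2b+/-. The wild-type libraries agreed closely and lay above all those of Tfap2a+/-, with a log2 fold of -0.71 ± 0.54 (SE, edgeR adjusted p = 0.999).

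Ntng1 (ENSMUSG00000059857.15, chromosome 3, 109780040 to 110144011) encodes netrin-G1, a membrane-anchored adhesion protein on thalamocortical axons. It had 41.5, 39.9 and 36.9 CPM in wild type, 34.7, 23.7 and 29.2 CPM for Tfap2a+/- and 78.9, 121 and 34.1 CPM for the libraries labelled Tfap2b+/-. Its wild-type libraries differed by little (39.4 ± 2.34 CPM, SD, n = 3), all lay above the Tfap2a+/- libraries, and library 3 labelled Tfap2b+/- lay just below them. The log2 folds against wild type were -0.43 ± 0.37 (SE) for Tfap2a+/- and 0.99 ± 0.37 for the libraries labelled Tfap2b+/-, with edgeR adjusted p-values of 0.999 and 0.446.

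Synpo2 (ENSMUSG00000050315.13, chromosome 3, 123076519 to 123236149), an actin-binding protein, had 22.4, 29.9 and 10.4 CPM in wild type, 15.2, 14.4 and 10.4 CPM for Tfap2a+/- and 24.3, 84.4 and 12.1 CPM for the libraries labelled Tfap2b+/-. Plekhg1 (ENSMUSG00000040624.17, chromosome 10, 3740364 to 3967303) had 30.4, 52.1 and 30.5 CPM in wild type, 27.4, 21.6 and 20.4 CPM for Tfap2a+/- and 47.3, 154 and 20.1 CPM for the libraries labelled Tfap2b+/-. For both genes library 2 labelled Tfap2b+/- was the highest and wild-type library 2 the second highest, as for Prkcd and Rgs16. Plekhg1 was lower in every Tfap2a+/- library than in every wild-type library, whereas the Synpo2 ranges overlapped. Against wild type, the log2 folds of Plekhg1 were -0.70 ± 0.61 (SE) for Tfap2a+/- and 0.97 ± 0.60 for the libraries labelled Tfap2b+/-, with edgeR adjusted p-values of 0.999 and 0.565. Those of Synpo2 were -0.65 ± 0.65 and 0.95 ± 0.64, with 0.999 and 0.592. Without library 2 labelled Tfap2b+/- the second fold was -0.16 for Plekhg1 and -0.20 for Synpo2, and without the 3 libraries set apart that of Synpo2 was 1.57.

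Per kilobase of exon, the mean level in wild type was highest for Slc17a6, at 11.8 CPM per kb, followed by Prkcd at 7.48, Rgs16 at 6.85, Ntng1 at 4.78, Plekhg1 at 4.31, Tcf7l2 at 2.36, Synpo2 at 1.60, Lef1 at 1.11 and Gbx2 at 0.932. Scaled by length, the wild-type libraries of neighbours in this order overlapped, except between Rgs16 and Ntng1 and between Plekhg1 and Tcf7l2. In Tfap2a+/- Tcf7l2 had a mean level of 0.813 CPM per kb, below Synpo2 at 1.02 and next to Lef1 at 0.788. In the libraries labelled Tfap2b+/- it had 9.34 CPM per kb, between Ntng1 at 9.46 and Plekhg1 at 8.43, with overlapping libraries.

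No member was called by edgeR in any comparison of all 9 libraries at an adjusted p under 0.05. The background was equally empty: 0 of 17355 genes were called by edgeR in each of the 3 comparisons, 0%, against 666, 1841 and 1997 genes with an unadjusted p under 0.05 (3.84%, 10.6% and 11.5%). Among the members, 0 of 9 had an unadjusted p under 0.05 in Tfap2a+/- against wild type and 3 of 9 in the libraries labelled Tfap2b+/- against wild type, namely Tcf7l2, Lef1 and Ntng1. In the libraries labelled Tfap2b+/- against Tfap2a+/- 7 of 9 did, all but Prkcd and Gbx2. Such counts were not particular to the members. Among lists followed below, 7 of 8 habenular, 11 of 12 midbrain and tectal and 13 of 15 striatal genes did, the striatal ones being lower. Other lists had fewer, with 6 of 16 other thalamic relay markers, 3 of 10 hippocampal and 1 of 12 cortical genes. These counts rest on a spread shared by all 9 libraries. In an edgeR fit of wild type and Tfap2a+/- alone the SE was smaller for all 9 members. It was 0.39 rather than 0.90 for Tcf7l2 and 0.17 rather than 0.54 for Rgs16, both with an adjusted p of 0.897. DESeq2 called 30, 150 and 208 genes in the same 3 comparisons (0.157%, 0.76% and 1.25% of those it tested), among them 0, 0 and 3 members. The 3 were Tcf7l2, Lef1 and Ntng1, with DESeq2 adjusted p-values of 0.0324, 0.0227 and 0.0169 in the libraries labelled Tfap2b+/- against Tfap2a+/-. In a test of any difference among the 3 genotypes the edgeR adjusted p-values of the members ran from 0.460 to 0.857, and 4 of the 9 had an unadjusted p under 0.05 (background 9.36%).

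The comparisons share groups and are given side by side. The members were chosen with earlier results of these data known. They were also correlated across these libraries (median r 0.80 over 36 pairs), so they do not count as 9 separate observations beside the shares of all genes. The median log2 fold of the 9 members was -0.71 in Tfap2a+/- against wild type, 0.97 in the libraries labelled Tfap2b+/- against wild type and 1.59 in the latter against Tfap2a+/-, beside medians of -0.01, -0.00 and 0.01 over all genes tested. In the first comparison the means of all 9 were lower, where 51.8% of all genes had a lower mean. Tcf7l2, Lef1, Ntng1, Rgs16 and Plekhg1, 5 of the 9, had all Tfap2a+/- libraries below all wild-type ones, as did 4.32% of the genes tested. In the libraries labelled Tfap2b+/- against wild type all 9 folds were above 0, where 50.3% of all genes had a lower mean, and none of the 9 had groups that did not overlap (background 8.84% higher and 7.63% lower). Against Tfap2a+/-, all 9 means were higher, where 48.3% of all genes had a lower mean, and no member lay below in every library (background 8.03%). Without library 2 labelled Tfap2b+/- the median of the comparison with wild type was -0.16, and without library 3 of that label it was 1.38. Against Tfap2a+/- it was 0.68 without library 2 and 2.09 without library 3, and without library 3 Tcf7l2, Lef1 and Ntng1 were called (edgeR adjusted p of 0.0268, 0.0268 and 0.0284), where 0.174% of the genes tested were. Leaving out library 3 also gave calls of these 3 members in the test of any difference, with edgeR adjusted p-values of 0.0407, 0.0445 and 0.0464 (background 0.09%).

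**Figure D2:**
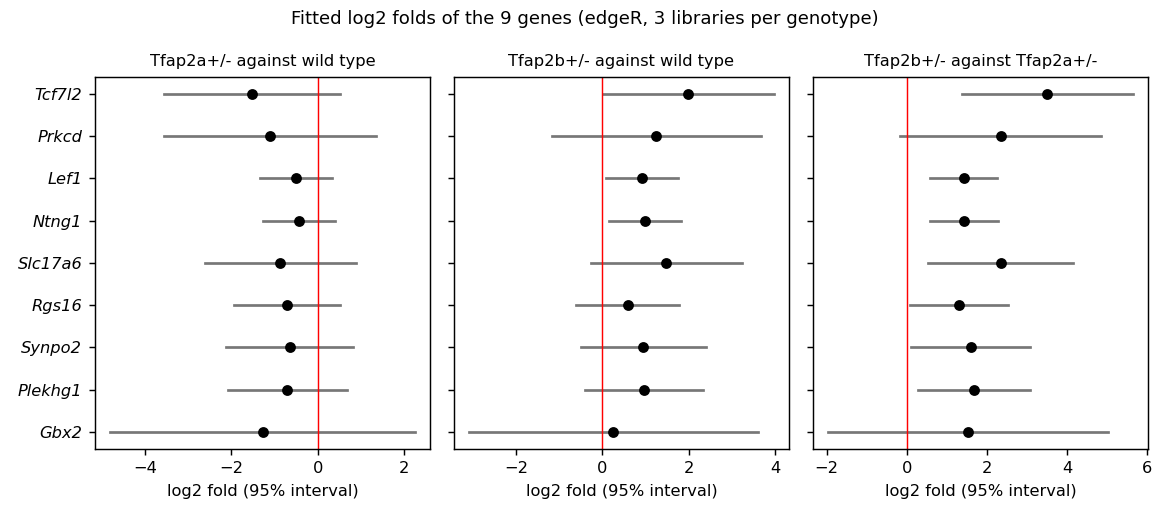
Fitted log2 folds of the 9 genes with 95% intervals (edgeR quasi-likelihood fit, 3 libraries per genotype) in the 3 comparisons; the red line marks no difference. In Tfap2a+/- against wild type every interval includes 0, and no gene passed the adjusted p in any comparison. The intervals use a spread shared by all 9 libraries. In a fit of wild type and Tfap2a+/- alone, the SE in that comparison was smaller for each of the 9 genes.

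Within a genotype the members varied more than most genes. The SD of log2 CPM within genotypes was 1.59 for Prkcd and 1.54 for Tcf7l2, values above 99.3% and 99.2% of the genes tested, and 0.55 for Lef1 and 0.56 for Ntng1, above 85.9% and 86.5%. The share of the variation in log2 CPM that lay between genotypes was 56.3% for Lef1, 56.0% for Ntng1, 43.8% for Tcf7l2, 20.0% for Prkcd and 5.34% for Gbx2. With 3 groups of 3 libraries, a part of the variation lies between groups even where genotype makes no difference. This share was not corrected for that or set beside that of all genes, so it does not measure an effect of genotype. Lef1 and Ntng1 had the smallest spread within genotypes and the largest share between them. The highest library stood 27.8-fold above the lowest for Prkcd, 18.7-fold for Slc17a6, 8.12-fold for Synpo2, 7.64-fold for Plekhg1, 6.48-fold for Rgs16, 5.10-fold for Ntng1 and 4.11-fold for Lef1.

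The levels of the 9 genes were positively correlated across libraries, to unequal degrees. Over the 36 pairs, Pearson's r of log2 CPM across the 9 libraries ran from 0.44 to 0.95 with a median of 0.80, and Spearman's rho from 0.33 to 0.97 with a median of 0.73. The median r between a member and any other gene tested was 0.01. With each genotype's mean subtracted, r still ran from 0.33 to 0.95 and was over 0.5 for 33 of the 36 pairs. No pair passed an exact permutation test adjusted over the 17354 other genes. The smallest adjusted p was 0.0646, for Tcf7l2 among all genes set against Slc17a6. The same 9 libraries, with their depth and tissue sample, underlie all pairs.

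The pairs among Prkcd, Synpo2, Plekhg1 and Rgs16 had r between 0.869 and 0.947 and rho between 0.700 and 0.867, whereas the highest rho of all pairs was that of Tcf7l2 and Ntng1. Prkcd and Plekhg1 correlated at r = 0.947 (exact permutation p = 0.000314) and rho = 0.833 (p = 0.00827, same test). Adjusted over all genes, the p of that r was 0.712 set against Prkcd and 0.504 set against Plekhg1. Plekhg1 ranked 2 among the 17354 genes by r with Prkcd. Their r was 0.788 without library 2 labelled Tfap2b+/- and wild-type library 2, which lay farthest from the median of Prkcd. Synpo2 and Plekhg1 correlated at r = 0.947 (exact permutation p = 0.00114) and rho = 0.733 (p = 0.0311, same test), with r = 0.711 when the same 2 libraries were left out. The adjusted p of the first r was 0.772 set against Synpo2 and 0.643 set against Plekhg1. Without these 2 libraries r fell to 0.597 for Prkcd with Rgs16 and to 0.464 for Synpo2 with Rgs16. The r of Synpo2 with Rgs16 was 0.649 when library 2 labelled Tfap2b+/- and Tfap2a+/- library 2 were left out instead. Those 2 libraries lay farthest from the median of Rgs16. For these 4 genes wild-type library 2 was the second highest of the 9.

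Tcf7l2 and Slc17a6 kept a different order, with library 1 labelled Tfap2b+/- above library 2. They correlated at r = 0.901 (exact permutation p = 0.00155, adjusted 0.0873 among all genes set against Tcf7l2; rho = 0.783, p = 0.0172), and at 0.618 without libraries 1 and 2 labelled Tfap2b+/-. Tcf7l2 and Ntng1 correlated at r = 0.911 (exact permutation p = 0.00122) and rho = 0.967 (p = 0.000165, same test), and at r = 0.843 without the same 2 libraries. The adjusted p of the first r was 0.0859 among all genes set against Tcf7l2 and 0.391 against Ntng1. Lef1 and Ntng1 reached r = 0.939 (exact permutation p = 0.00149) and rho = 0.817 (p = 0.0108, same test). The adjusted p of that r was 0.357 among all genes set against Lef1 and 0.391 against Ntng1. Without those libraries r was 0.487, so its size depended on them. Tcf7l2 with Lef1 likewise went from 0.868 to 0.492. Leaving out the 2 highest libraries also narrows the range of both genes. The lowest correlations were those of Lef1 with Gbx2 (r = 0.436), Slc17a6 with Synpo2 (0.530) and Slc17a6 with Prkcd (0.544).

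**Figure D3:**
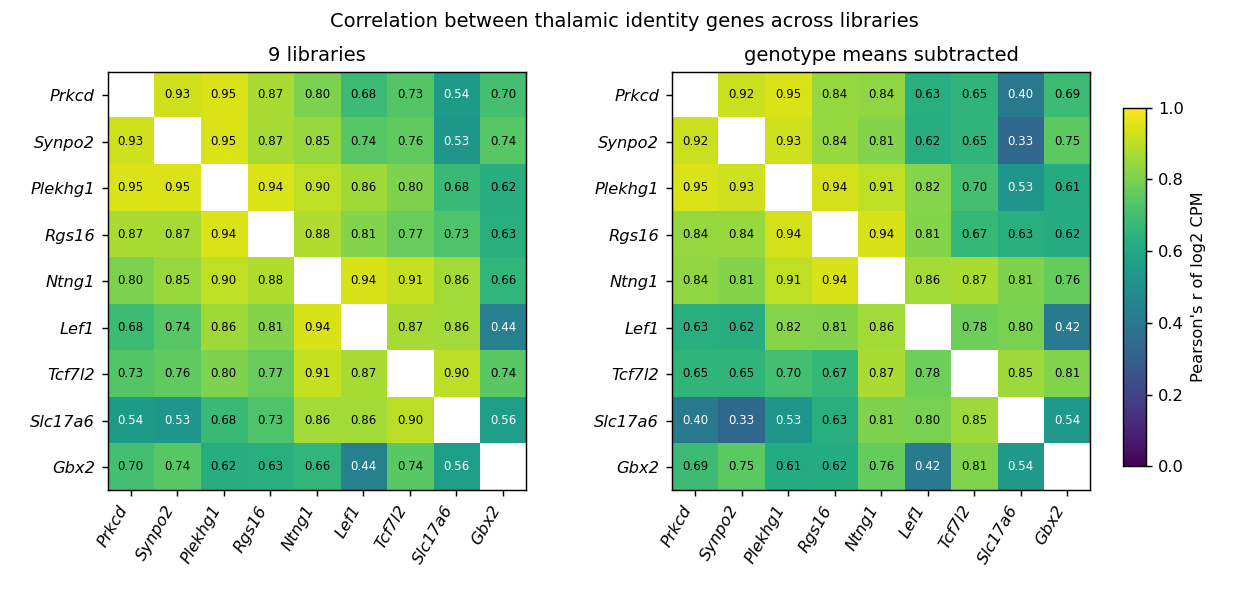
Pearson's r of log2 CPM for each pair of the 9 genes over the 9 libraries (left) and after subtraction of each genotype's mean (right); brighter colours stand for higher r. On the left Plekhg1 is brightest with Prkcd, Synpo2 and Rgs16, and Slc17a6 is least like Prkcd and Synpo2.

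Differences between these patterns can be read from ratios within a library, which do not depend on how libraries are scaled. The ratio of Tcf7l2 to Prkcd counts was 0.998, 0.266 and 0.786 in wild-type libraries 1 to 3, 0.309, 0.490 and 0.480 in Tfap2a+/- and 4.58, 0.366 and 0.50 in the libraries labelled Tfap2b+/-. Library 1 labelled Tfap2b+/- stood apart from library 2 of the same label in that ratio. The ratio of Slc17a6 to Prkcd ran from 0.473 in wild-type library 2 to 10.0 in library 1 labelled Tfap2b+/-. The highest ratio over the 9 libraries was 17.2 times the lowest for Tcf7l2 to Prkcd and 21.2 times for Slc17a6 to Prkcd. It was 5.44 times for Slc17a6 to Tcf7l2 (1.77 to 9.65), 3.69 times for Prkcd to Plekhg1 (0.442 to 1.63), 2.17 times for Plekhg1 to Synpo2 (1.36 to 2.94) and 1.69 times for Ntng1 to Lef1 (3.08 to 5.22).

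**Figure D4:**
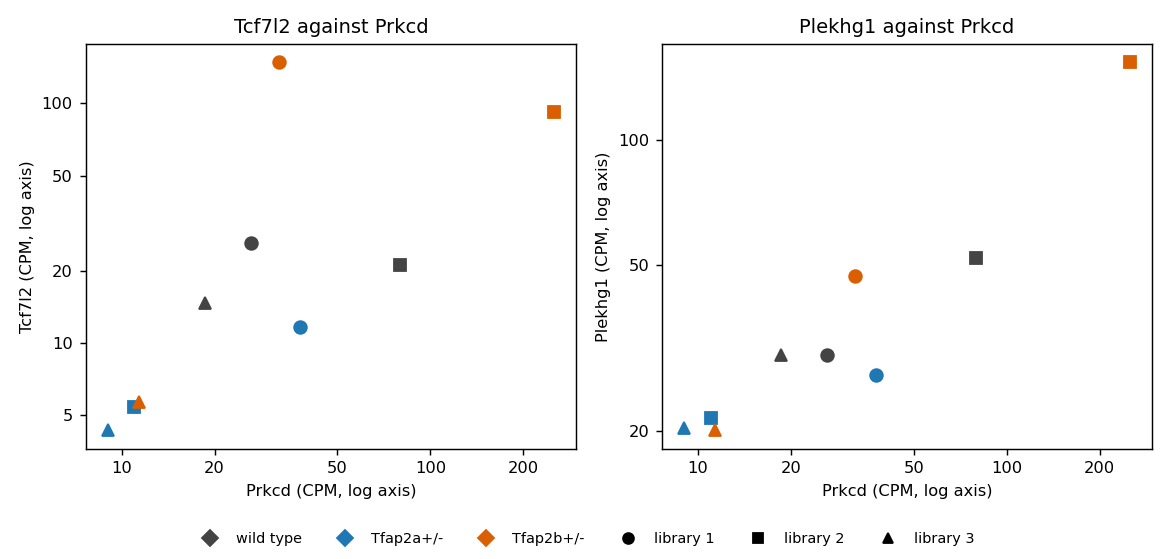
Tcf7l2 (left) and Plekhg1 (right) against Prkcd in each library (CPM, log axes); colours give the genotype label and symbols the library number. Plekhg1 rises with Prkcd across the libraries, whereas library 1 labelled Tfap2b+/- lies far above the others in Tcf7l2 for its level of Prkcd.

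The 10 genes most like Tcf7l2 across the 9 libraries were Dusp16 (r = 0.979), 4931406P16Rik (0.972), Tmem132c (0.970), Entpd5 (0.965), Rgs3 (0.964), Wnt3 (0.963), Fnbp1 (0.963), Odr4 (0.962), Nrbp2 (0.960) and Snx22 (0.958). Their adjusted p-values by exact permutation over all genes ran from 0.0696 to 0.0804. Wnt3, which encodes a Wnt ligand, had r = 0.945 without libraries 1 and 2 labelled Tfap2b+/-, the highest of the 10. Among the members, Ntng1 ranked 64, Slc17a6 89 and Lef1 210 by r with Tcf7l2. For Slc17a6, 195 genes passed an adjusted p under 0.05, 88 with a positive and 107 with a negative r, whereas for each of the other 8 members the number was 0.

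The promoters of the members, taken from RefSeq (GRCm38.p6) as the 250 bases before 1 listed start per gene, the one nearest to the gene's start in GENCODE, were searched on both strands for CTTTGA, the core of the sequence that TCF/LEF factors bind, and for TAATTA, a core that many homeodomain factors bind. All 9 genes had an entry, and the further starts listed for Tcf7l2, Prkcd, Slc17a6 and Lef1 were not searched. The windows of 3 genes are shown: that of Tcf7l2, whose product is the list's main TCF/LEF factor, and those of Prkcd and Synpo2, the genes that hold a match. Capitals mark the match, which for Prkcd lies on the opposite strand and so reads TCAAAG.
Tcf7l2, chr19:55741560-55741809, plus strand: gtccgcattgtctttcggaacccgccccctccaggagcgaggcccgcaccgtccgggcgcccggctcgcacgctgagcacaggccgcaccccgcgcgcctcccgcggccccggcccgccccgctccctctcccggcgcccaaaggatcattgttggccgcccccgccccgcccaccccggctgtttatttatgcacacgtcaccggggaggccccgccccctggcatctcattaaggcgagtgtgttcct
Prkcd, chr14:30626209-30626458, minus strand: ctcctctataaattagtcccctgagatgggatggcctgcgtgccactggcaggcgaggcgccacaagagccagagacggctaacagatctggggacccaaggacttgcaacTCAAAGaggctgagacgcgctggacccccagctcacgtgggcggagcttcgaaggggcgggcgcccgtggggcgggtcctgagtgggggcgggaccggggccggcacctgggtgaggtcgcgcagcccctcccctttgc
Synpo2, chr3:123236150-123236399, minus strand: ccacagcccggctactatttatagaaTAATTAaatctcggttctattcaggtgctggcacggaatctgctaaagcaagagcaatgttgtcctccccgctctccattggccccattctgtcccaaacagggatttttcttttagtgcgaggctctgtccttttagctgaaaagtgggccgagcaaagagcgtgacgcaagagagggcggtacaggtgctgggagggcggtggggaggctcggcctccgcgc
CTTTGA was found in 1 of the 9 members, at positions 112 to 117 of the Prkcd window, and in 13.8% of the 32851 windows in the table, which holds several starts for some genes. TAATTA was also found in 1 of the 9, at positions 27 to 32 of the Synpo2 window, and in 4.84% of all windows. The Tcf7l2 window held neither and had 72.8% G and C, against a median of 52.4% over all windows. The window listed for Plekhg1 lies 132303 bases from the start of the gene in GENCODE. The matches describe letters in these windows, and binding was not measured.

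The other 16 thalamic relay markers were compared with the members. All 16 passed the filter, and 0 were called in any comparison. In Tfap2a+/- against wild type 11 of the 16 had a lower mean and 5 a higher one (median log2 fold -0.19), whereas in the libraries labelled Tfap2b+/- all 16 had a higher mean than in wild type (median 0.89). Shox2, a homeodomain factor of thalamic neurons, had 10.4, 9.07 and 10.2 CPM in wild type, 2.33, 0.490 and 0.0461 CPM for Tfap2a+/- and 43.1, 41.6 and 0 CPM for the libraries labelled Tfap2b+/-. Its libraries 1 and 2 of that label thus stood above all others and library 3 held no count, which allows up to 0.113 CPM. Lhx9, a LIM-homeodomain factor, had 6.67, 8.02 and 12.7 CPM, then 2.77, 0.446 and 0.138 CPM, and 52.9, 20.5 and 0.867 CPM in the same order. Vipr2, a receptor for vasoactive intestinal peptide, did not keep this order: it had 3.28, 8.16 and 9.92 CPM in libraries 1 to 3 labelled Tfap2b+/-, all above the 0.890, 0.490 and 0.322 CPM of Tfap2a+/-, beside 2.30, 5.80 and 0.965 CPM in wild type. Of all genes tested, 9.2% had all libraries labelled Tfap2b+/- above all those of Tfap2a+/-.

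Genes whose products bind those of the members or are related to them were followed as well. Of the 20 partners and paralogs 19 passed the filter and 0 were called, with a median log2 fold of 0.05 in Tfap2a+/- against wild type and -0.26 in the libraries labelled Tfap2b+/- against wild type. Tcf7, a TCF/LEF paralog best known in T cells, had 4.70, 4.70 and 3.78 CPM in wild type, 6.74, 7.75 and 5.90 CPM for Tfap2a+/- and 3.99, 5.39 and 5.54 CPM for the libraries labelled Tfap2b+/-. Its Tfap2a+/- libraries lay above all others, opposite in direction to Tcf7l2 and Lef1 (log2 fold 0.63 ± 0.18 SE against wild type, edgeR adjusted p = 0.999; 4.85% of genes had all Tfap2a+/- libraries above all wild-type ones). Lrrc4c, the receptor for netrin-G1, had 164, 127 and 153 CPM in wild type, 150.04, 172 and 178 CPM for Tfap2a+/- and 118, 131 and 158 CPM for the libraries labelled Tfap2b+/-, and the 3 groups overlapped. Prkcb had 352 CPM in library 1 labelled Tfap2b+/-, its lowest level, against 588 to 905 CPM in the other 8, and Rgs4 likewise had 162 CPM there against 296 to 628 CPM elsewhere.

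Of 12 Wnt pathway feedback genes, which are commonly switched on by beta-catenin with TCF/LEF factors, 11 passed the filter and 0 were called. Their median log2 fold was 0.05 in Tfap2a+/- against wild type and 0.35 in the libraries labelled Tfap2b+/- against wild type. Lgr5, a receptor for R-spondins, had 2.68, 2.94 and 4.29 CPM in wild type, 4.11, 3.07 and 4.79 CPM for Tfap2a+/- and 11.0, 7.28 and 21.8 CPM for the libraries labelled Tfap2b+/-. All 3 libraries of that label lay above the other 6, and library 3, low in the 9 thalamic genes, was the highest (log2 fold against wild type 2.01 ± 0.40 SE, edgeR adjusted p = 0.260). Wif1, a secreted Wnt inhibitor, was also highest in that group, at 1.84, 1.52 and 1.24 CPM for the libraries labelled Tfap2b+/- and between 0.527 and 0.936 CPM in the other 6. Of all genes tested, 8.84% had every library labelled Tfap2b+/- above every wild-type one, and 9.2% above every Tfap2a+/- one. The list was mixed against Tfap2a+/-, with 7 of the 11 higher in mean, 4 lower and a median log2 fold of 0.08.

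Markers of neighbouring regions were high in some of the same libraries. A score per library, the mean over a list of log2 CPM minus each gene's mean over the 9 libraries, was 1.13 and 2.07 for the 9 thalamic genes in libraries 1 and 2 labelled Tfap2b+/- and -1.12 in library 3, and 1.10, 1.41 and -0.54 for the other thalamic markers. For 8 habenular genes, all of which passed the filter, the score was 2.69, 2.12 and -0.46 in the same libraries, between -1.33 and -1.21 in Tfap2a+/- and between -0.84 and 0.54 in wild type. Their summed level was 57.9 to 65.7 CPM in wild type, 46.0 to 78.5 CPM for Tfap2a+/- and 82.5 to 171 CPM for the libraries labelled Tfap2b+/-, and Pou4f1 was at 0 counts in at least 1 Tfap2a+/- library. Chrnb4, a nicotinic receptor subunit of the medial habenula, had 0.235, 0.903 and 0.850 CPM in wild type, 0.274, 0.223 and 0.230 CPM for Tfap2a+/- and 8.72, 4.01 and 1.77 CPM for the libraries labelled Tfap2b+/-.

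For 14 midbrain and tectal genes, of which 12 passed the filter and which include Tfap2b, the score was 3.40, 1.01 and -0.32 in the libraries labelled Tfap2b+/-, between -1.09 and -0.98 in Tfap2a+/- and -1.48, -0.60 and 1.15 in wild type. Their summed level was 10.5 to 50.8 CPM in wild type, 12.8 to 13.5 CPM for Tfap2a+/- and 34.8 to 151 CPM for the libraries labelled Tfap2b+/-, and Sox14 was at 0 in all Tfap2a+/- libraries. Library 1 labelled Tfap2b+/-, the highest in Tcf7l2 and Slc17a6, was also the highest in this score. Hippocampal genes (10 of 10 passed) scored 0.42, 1.63 and -0.61 in the libraries labelled Tfap2b+/-, between -1.33 and -0.57 in Tfap2a+/- and -1.05, 0.68 and 1.52 in wild type, with summed levels of 165 to 274, 133 to 215 and 123 to 398 CPM and Spink8 at 0 in at least 1 Tfap2a+/- library. Striatal genes (15 of 15 passed) scored 1.87, 1.62 and 0.01 in Tfap2a+/- and between -1.40 and 0.25 in the other 6 libraries. Their part in the thalamic results was not tested.

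The remaining lists were those of cell types and of the cortex. Choroid plexus genes scored 3.80 in library 2 of wild type, 1.96 in library 1 of Tfap2a+/- and 0.74 in library 2 labelled Tfap2b+/-. The other libraries lay between -2.14 and -0.49, and the part of these genes in the thalamic results was not tested. Without library 2 of wild type, library 1 of Tfap2a+/- and library 1 labelled Tfap2b+/- together, the median log2 folds of the members were -0.72, 0.998 and 1.96 in the 3 comparisons and the median r between them was 0.90. Oligodendrocyte genes, relevant because Tcf7l2 is made in that lineage, scored 0.41, 0.30 and -0.62 in the libraries labelled Tfap2b+/-, between -0.87 in library 3 and 0.30 in library 1 of Tfap2a+/-, and between 0.00 and 0.47 in wild type. All 11 passed the filter and none was at 0 in a library, with summed levels of 4879 to 7211 CPM in wild type, 2284 to 5901 CPM for Tfap2a+/- and 2716 to 7305 CPM for the libraries labelled Tfap2b+/-. Within the group labelled Tfap2b+/- the oligodendrocyte genes were thus low in the same library as the thalamic genes, over a narrower range, and their part in the thalamic results was not tested. Cortical genes scored between -0.86 in library 1 labelled Tfap2b+/- and 0.62 in Tfap2a+/- library 3. The 6 general neuronal genes stayed between -0.35 and 0.19 and the 9 endothelial genes between -0.17 and 0.10, a narrow range beside that of the thalamic genes.

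**Figure D5:**
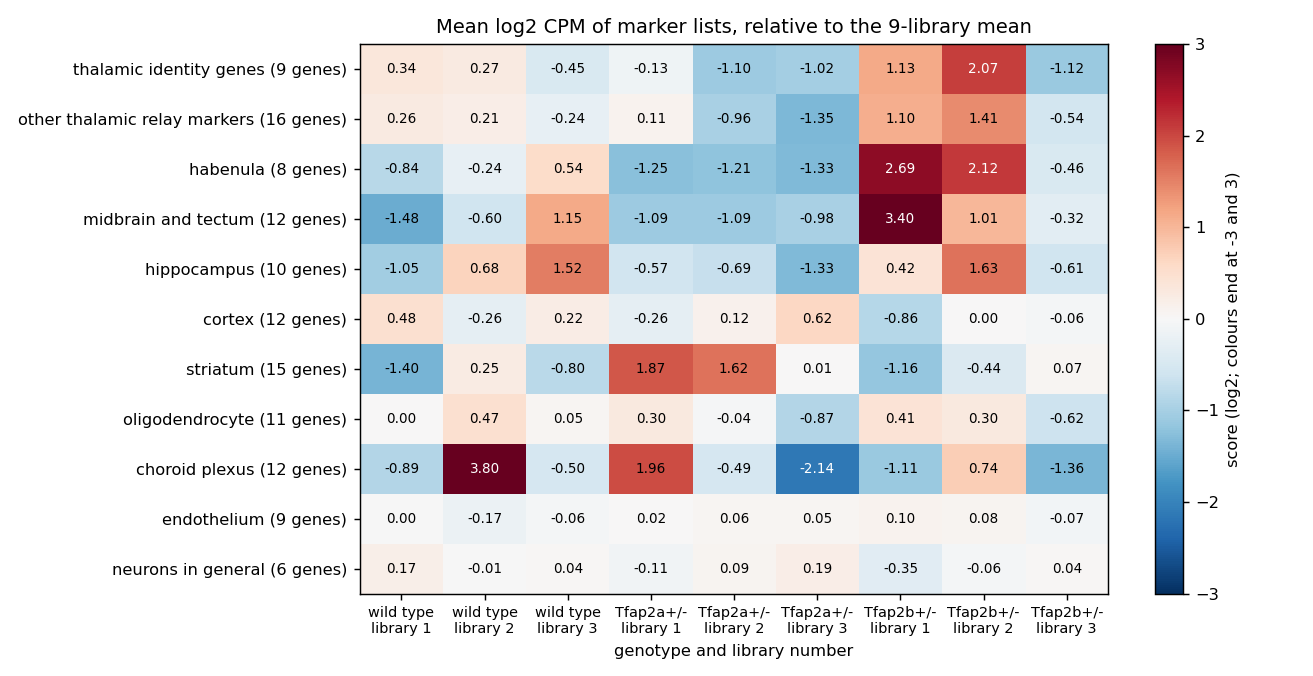
Score per library (mean over a list of log2 CPM minus each gene's mean over the 9 libraries) for the 9 thalamic identity genes and marker lists of other regions and cell types; red is above and blue below the 9-library mean. The thalamic and habenular lists are highest in libraries 1 and 2 labelled Tfap2b+/- and the midbrain list in library 1, whereas the endothelial and neuronal lists stay near 0.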

How the data were processed

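The members and all gene lists were chosen with earlier results of these data known, so list counts and medians are descriptions. Each library has a deposited file of raw counts per gene, laid out like STAR output. STAR 2.6.1d, cutadapt 2.4, edgeR and the build GRCm38.p6 are named in the submitters' processing notes, and the annotation release was not given in the sources used here. Reverse-strand counts were used because, per the labels' protocols, the kit keeps strand with dUTP; forward-strand counts made up 4.16% to 4.94%. Symbols, coordinates and exon lengths came from GENCODE M21, which held 54409 of the 54446 identifiers. Rows that name no gene stayed out: no feature 7.30% to 11.8% of fragments, several positions 5.33% to 6.20%, unmapped 1.21% to 1.74%, ambiguous 1.10% to 1.21%. Libraries of 1 genotype differed by a chi-square per degree of freedom of at least 20.6, so none was a duplicate.

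The 17355 genes that passed filterByExpr went into the quasi-likelihood F-test of edgeR 4.0.16 under R 4.3.3, with TMM scaling and a single fit of all 9 libraries on genotype, and Benjamini-Hochberg adjusted p under 0.05 was called. The test was checked on simulated counts. DESeq2 1.42.0, other scalings and filters, unstranded counts, a replicate block, 2-genotype fits, a robust fit and leaving libraries out were the alternatives. Correlations used log2 CPM with a prior count of 2, two-sided exact permutation over all 362880 orders of the 9 libraries (Python 3.11.15, numba 0.67.0), adjusted over the 17354 other genes. The floor of 3 counts covers counting error only: PCR copies were not marked. Besides the 9 members, up to 4 genes of each list were named, those of smallest p in the test of any difference among genotypes, and the 10 genes of highest r with Tcf7l2. Promoter sequences came from RefSeq (GRCm38.p6), 1 listed start per gene.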

Additional observations from a re-analysis of the deposited data

How the results depend on the processing

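Over 18 alternative settings, the 27 member folds had 486 alternative values, of which 9 reversed in sign, 6 crossed the threshold and 471 kept their direction and side. In the libraries labelled Tfap2b+/- against wild type, leaving out library 2 of that label turned Prkcd to -0.92, Rgs16 to -0.42, Synpo2 to -0.20, Plekhg1 to -0.16 and Gbx2 to -0.61. Gbx2 in that comparison was -0.12 without wild-type library 2, -0.33 without wild-type library 3 and -0.17 without the 3 libraries that stand apart, and in Tfap2a+/- against wild type 0.97 without wild-type library 1. Over the libraries left out in turn, the other ends of the ranges of these folds were 2.14 for Prkcd, 0.99 for Rgs16, 1.38 for Synpo2, 1.41 for Plekhg1 and 2.504 for Gbx2 against wild type in the libraries labelled Tfap2b+/-, and -3.61 for Gbx2 in Tfap2a+/-. Leaving out each library in turn, the median log2 fold of the members ran from -0.84 to -0.54 in Tfap2a+/- against wild type, from -0.16 to 1.38 in the libraries labelled Tfap2b+/- against wild type and from 0.68 to 2.09 between the latter and Tfap2a+/-. The members called ran from 0 to 0, 0 to 0 and 0 to 3 in these comparisons and 0 to 3 in the test of any difference, the 3 being reached without library 3 labelled Tfap2b+/-. DESeq2 called 3 members between the libraries labelled Tfap2b+/- and Tfap2a+/-; the cause was not tested. The median r between members ran from 0.67 without library 2 labelled Tfap2b+/- to 0.87 without library 1, and was 0.62 without both, an alternative chosen after seeing the data. Genes called by edgeR over the whole table were 0 in each comparison, against 2, 0 and 7 with no filter on low counts and 0, 4 and 31 without library 3 labelled Tfap2b+/-. The replicate numbers do not pair the libraries: 3 of 9 same-number pairs correlated over 0.1 in their deviations from the group means (range -0.35 to 0.34), and not every library correlated best with its own number. The fit with the replicate block called 0 members and 0 genes in every comparison, with median folds of -0.65, 0.83 and 1.35 and a median r of 0.81. At 1 to 4 counts, Gbx2 in 4 libraries is limited by depth.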

Other observations

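Lists of 4 further regions were followed beside the thalamic genes. Of 10 cerebellar genes 8 passed the filter on low counts, and their score was 0.97 and 0.63 in libraries 1 and 2 labelled Tfap2b+/- and between -0.52 and 0.28 in the other 7. Cbln1, a synaptic organiser of granule cells that other brain regions also make, had 8.50, 9.18 and 12.2 CPM in wild type, 6.40, 4.19 and 2.58 CPM for Tfap2a+/- and 28.0, 21.2 and 7.28 CPM for the libraries labelled Tfap2b+/-. Gabra6, which defines cerebellar granule cells, was at 0 in all Tfap2a+/- libraries and in all libraries labelled Tfap2b+/-. It was also at 0 in at least 1 wild-type library, though not in all of them. Of 12 hindbrain genes only 2, Tph2 and Slc6a5, passed the filter. Tph2, the enzyme that starts serotonin synthesis in the raphe nuclei, had 40.9 CPM in library 1 labelled Tfap2b+/- and between 0.517 and 1.55 CPM in the other 8 libraries.

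Of 15 hypothalamic genes 6 passed, and their score stayed between -0.59 and 0.67 with no genotype apart. Of 8 olfactory bulb genes 5 passed, and library 3 labelled Tfap2b+/-, low in the thalamic genes, had the highest score of that list at 1.59. Cdhr1, a cadherin of mitral and tufted cells, had 92.4 CPM in that library and between 2.96 and 17.8 CPM in the other 8. None of these genes was called in edgeR in any comparison.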
